A study of Mus musculus with 12 samples.

Results

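Gene expression after lipopolysaccharide (LPS) was compared between a Socs1 knockout and wild type in the mouse macrophage line RAW264.7. The comparison rests on 4 of the 12 RNA sequencing libraries of the study, chosen by their labels: both libraries of Socs1-/- cells and both libraries of wild-type cells that were given LPS at 100 ng/ml for 3 h. All 54232 genes of the count table entered, and 12771 passed a filter on low counts and were tested. The other 8 libraries are untreated wild-type and untreated Socs1-/- cells and Ing4-/- cells with and without LPS, each group with 2 libraries. They served to estimate the spread, and the untreated Socs1 knockout libraries were set beside the treated ones. How Socs1 was disrupted, and whether the knockout is 1 clone or several, the sources used here do not give, so an effect of the lost gene and a difference between lines cannot be told apart. The labels do not state that a group's libraries come from different cultures, and p-values then measure only the spread between these libraries, which may be technical. Throughout, library 1 and library 2 are the first and second replicate of the LPS-treated Socs1 knockout.

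LPS, a component of the outer wall of Gram-negative bacteria, is sensed by Toll-like receptor 4 (Tlr4) on macrophages. One arm of the signal works through NF-kB and MAP kinases and switches on cytokine and immediate early genes. Another arm makes the cell secrete interferon beta, which acts back on the same cells through JAK kinases and STAT factors and switches on interferon-stimulated genes. SOCS1 is an inhibitor of JAK kinases and part of an E3 ubiquitin ligase. Its gene is itself switched on by cytokines and LPS, so that SOCS1 works as a feedback brake.

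The interferon-stimulated genes stood far apart between the knockout libraries, and many of them carry before their start sites an element bound by STAT and IRF factors. Promoter windows of RefSeq (build GRCm38.p6), cut to the 250 bases before the start, were found for 60 of the 73 tested type I interferon-stimulated genes. The letters GAAA, any 2 bases and GAAA again, the core of the interferon-stimulated response element, were searched on both strands, and overlapping matches were counted. They occurred in 21 of these 60 windows (35.0%) and in 9 of 10 windows of the interferon-induced GTPases of the GBP and IRG families (90.0%). Of all 27025 windows, 821 (3.04%) held them. A match is a description of the letters and not a measured binding site. The windows of Socs1 and of 4 interferon-stimulated genes whose values follow are shown from 5′ to 3′ on the gene's strand, with the matches, in either orientation, in capitals. Socs1 lies on the minus strand (chr16:10785537-10785786), and its matches, which overlap, begin 83 and 77 bases before the start. Isg15 (chr4:156200819-156201068, minus strand) held 3 overlapping matches, Ifit1 (chr19:34640639-34640888, plus strand) held 2, and Cxcl10 (chr5:92348890-92349139, minus strand) and Gbp2 (chr3:142620413-142620662, plus strand) held 1 each.
Socs1: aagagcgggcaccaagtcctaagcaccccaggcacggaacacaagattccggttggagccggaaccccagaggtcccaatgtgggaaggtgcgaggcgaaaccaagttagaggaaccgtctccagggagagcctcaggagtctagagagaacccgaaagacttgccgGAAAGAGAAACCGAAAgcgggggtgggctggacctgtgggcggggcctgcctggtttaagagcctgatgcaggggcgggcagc
Isg15: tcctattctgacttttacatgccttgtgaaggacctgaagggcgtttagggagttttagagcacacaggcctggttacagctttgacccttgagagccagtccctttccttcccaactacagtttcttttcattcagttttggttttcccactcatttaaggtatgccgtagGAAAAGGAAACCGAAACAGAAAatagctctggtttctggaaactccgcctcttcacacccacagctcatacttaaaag
Ifit1: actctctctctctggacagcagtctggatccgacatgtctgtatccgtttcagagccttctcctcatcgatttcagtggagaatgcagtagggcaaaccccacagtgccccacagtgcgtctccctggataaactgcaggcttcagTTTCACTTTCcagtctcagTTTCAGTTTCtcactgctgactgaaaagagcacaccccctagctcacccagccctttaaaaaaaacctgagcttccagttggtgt
Cxcl10: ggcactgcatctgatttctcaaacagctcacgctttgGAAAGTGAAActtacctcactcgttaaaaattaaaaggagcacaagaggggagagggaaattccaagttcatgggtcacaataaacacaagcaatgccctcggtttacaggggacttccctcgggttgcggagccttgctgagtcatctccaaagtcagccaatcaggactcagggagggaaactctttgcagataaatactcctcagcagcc
Gbp2: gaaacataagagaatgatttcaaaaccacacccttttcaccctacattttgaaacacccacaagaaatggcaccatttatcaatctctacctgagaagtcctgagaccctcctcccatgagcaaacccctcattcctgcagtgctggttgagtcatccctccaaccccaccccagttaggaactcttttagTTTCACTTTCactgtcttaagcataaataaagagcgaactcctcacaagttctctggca

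The knockout libraries differed strongly from each other. Totals over all 12 libraries were between 17250815 and 24377950 counts, and levels are given as CPM, read counts scaled to the size of the library. At these depths a level of 0.122 to 0.169 CPM rests on 3 counts. On the first principal component, which held 54.4% of the variance, the untreated libraries lay between -66.1 and -41.7 and 5 of the 6 LPS-treated libraries between 62.4 and 74.4, while library 1 lay at -16.2. Across genes, log2 CPM of library 1 correlated at 0.971 with the first untreated Socs1 knockout library, at 0.926 with library 2 and at 0.941 and 0.923 with the wild-type LPS libraries. Library 2 correlated at 0.972 and 0.965 with these. The depth of library 1, 24377950 counts, was the highest of all and that of library 2 was 20158110, and 0.829% and 0.809% of their counts were mitochondrial. Every result is therefore given for each knockout library. For a single library the log2 difference and adjusted p come from a fit that leaves the other out, in which the spread of the lone library is taken to be that of the other groups. Both of these fits use the same wild-type libraries. In bulk samples, fewer cells that express a gene and less RNA per cell cannot be told apart.

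**Figure D1:**
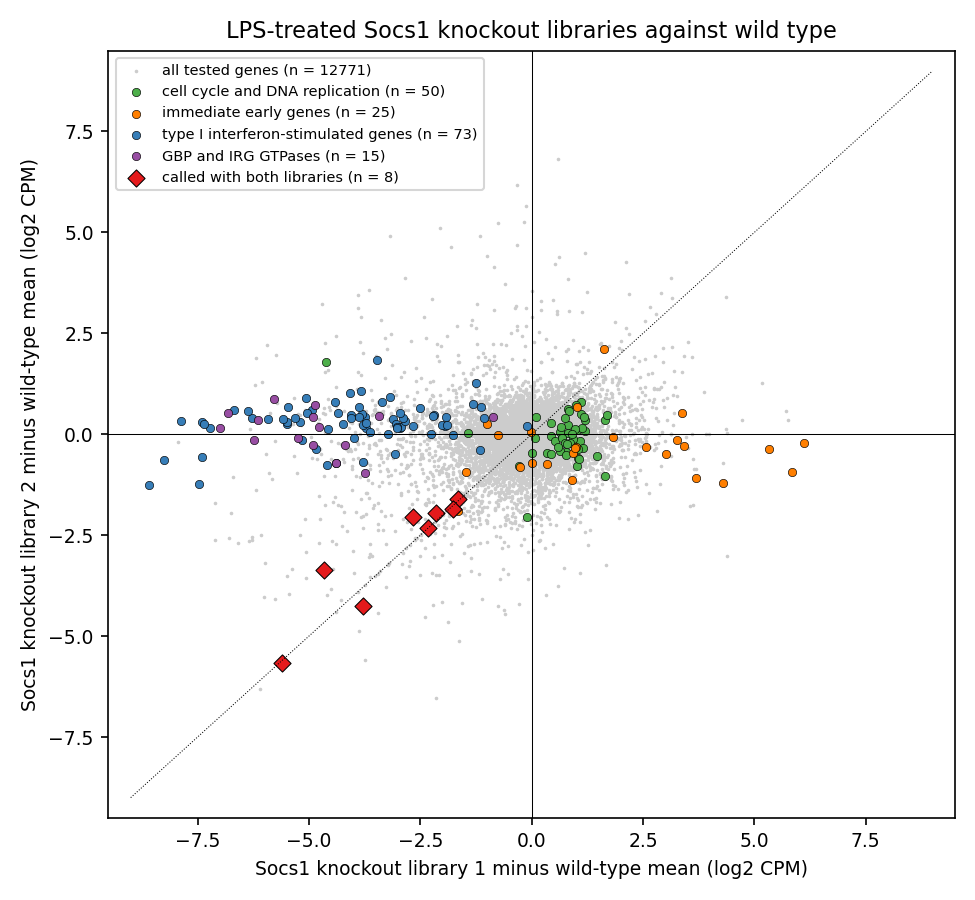
Difference of library 1 (horizontal) and library 2 (vertical) from the wild-type LPS mean in log2 CPM, for all 12771 tested genes (grey), 4 gene lists and the 8 called genes (red diamonds); the dotted line marks equal differences. Interferon-stimulated genes and GTPases lie far to the left of 0 in library 1 and near 0 in library 2, immediate early genes mostly to the right, and the 8 called genes near the dotted line.

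Socs1 itself (ENSMUSG00000038037, chromosome 16, 10782240 to 10785536, minus strand, GRCm38) stood at 9.08 and 9.08 CPM in the wild-type LPS libraries and at 2.73 and 7.14 CPM in libraries 1 and 2. Both knockout libraries lay below both of wild type. The untreated libraries held 0.176 and 0.498 CPM in wild type and 0.304 and 0.348 in the knockout. With both libraries the log2 difference was -0.88 ± 0.473 SE, adjusted p = 0.536. In library 1 alone it was -1.73 ± 0.451 SE, adjusted p = 0.0445, and in library 2 alone -0.34 ± 0.41 SE, adjusted p = 0.792. Reads over the gene remained, and the position of the disruption is not known, so these counts neither check the genotype label nor go against it. Socs3, a brake on interleukin-6 family signals, had 513 and 859 CPM in wild type, 179 in library 1 and 787 in library 2. Cish, a brake on STAT5, had 33.7 and 16.7 CPM in wild type against 5.66 and 16.1. In library 1 alone both were lower (log2 -1.94 at adjusted p = 0.0104 and -2.16 at adjusted p = 0.0323), and in library 2 alone neither passed (adjusted p = 0.845 and 0.626). Of 18 tested SOCS family genes and JAK-STAT inhibitors, 0 passed with both libraries, and in library 1 alone 3 were higher and 4 lower, where 4.31% of all genes tested were called higher and 4.69% lower.

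With both libraries together, the quasi-likelihood test of edgeR, adjusted by Benjamini-Hochberg, called 8 genes, all lower in the knockout (0.0626% of the genes tested). None was higher, and 1356 genes (10.6%) had an unadjusted p under 0.05. DESeq2 called 225 genes (1.64% of 13733), 87 higher (0.634%) and 138 lower (1%), and limma-voom called 24. All 8 genes were among the calls of each. Leaving out wild-type LPS library 1 left 4 calls and leaving out wild-type LPS library 2 left 0. In library 1 alone all 8 were called, and in library 2 alone their adjusted p ranged from 0.104 to 0.143.

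Cers4, a ceramide synthase (ENSMUSG00000008206, chromosome 8, 4493026 to 4531680, plus strand), had 10.7 and 10.0 CPM in wild type and 0.122 and 0.112 CPM in the knockout libraries, which is 3 and 2 counts. The ratio of wild type to knockout was 84.9 (28.9 to 414) in library 1 and 92.3 (25.4 to 765) in library 2 (exact 95% intervals, which cover counting error only), and edgeR's adjusted p with both libraries was 0.00852. Pf4, a platelet-type chemokine (ENSMUSG00000029373, chromosome 5, 90772435 to 90773383, plus strand), had 4.51 and 4.26 CPM against 0.0815 and 0.337 (adjusted p = 0.05, just under the threshold before rounding). Its 2 counts in library 1 give a ratio of 53.8 (14.7 to 448). Both genes were thus close to the detection floor in both knockout libraries and were well above it in both of wild type.

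Dner, a Notch-related transmembrane protein (ENSMUSG00000036766, chromosome 1, 84369839 to 84696221, minus strand), had 14.7 and 32.7 CPM in wild type and 1.51 and 1.07 in the knockout, a log2 difference of -4.19 ± 0.515 SE, adjusted p = 0.0324. Odc1 (ENSMUSG00000011179, chromosome 12, 17544794 to 17551505, plus strand) encodes ornithine decarboxylase, the entry enzyme of polyamine synthesis. Its level was 4188 and 3754 CPM in wild type and 786 and 788 in the knockout (log2 -2.34 ± 0.27 SE, adjusted p = 0.0227). The knockout libraries were almost equal for this gene. Mindy1, a deubiquitinase that trims long ubiquitin chains (ENSMUSG00000038712, chromosome 3, 95281345 to 95296166, plus strand), had 198 and 212 CPM against 32.3 and 49.1 (log2 -2.33 ± 0.242 SE, adjusted p = 0.0227). H2-M3, an MHC class Ib molecule that presents formylated bacterial peptides (ENSMUSG00000016206, chromosome 17, 37270220 to 37274484, plus strand), had 60.9 and 87.4 CPM against 16.5 and 18.8 (log2 -2.07 ± 0.231 SE, adjusted p = 0.0227). Hhex, a homeobox transcription factor of blood and liver cells (ENSMUSG00000024986, chromosome 19, 37434810 to 37440731, plus strand), had 31.3 and 41.4 CPM against 10.6 and 9.84 (log2 -1.83 ± 0.202 SE, adjusted p = 0.0227). Cuedc1, which encodes a CUE domain protein (ENSMUSG00000018378, chromosome 11, 88098058 to 88194140, plus strand), had 26.9 and 27.9 CPM against 8.72 and 8.94 (log2 -1.63 ± 0.188 SE, adjusted p = 0.0227). For each of the 8 genes both knockout libraries lay below both of wild type, as did 18% of all tested genes. On the log2 scale the wild-type libraries were closer to each other than to either knockout library. A call asks for a small spread within groups, so both statements largely follow from the selection and add no support.

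All 8 genes also lay lower without LPS, with both untreated knockout libraries below both untreated wild-type libraries, as 20.4% of all tested genes did. The untreated libraries share no sample with the treated ones. Untreated, edgeR called 6 genes in the Socs1 knockout against wild type (0.047%), all lower, and 658 genes (5.15%) had an unadjusted p under 0.05. Cers4 stood at 6.85 and 6.43 CPM in untreated wild type and 0.173 and 0.0996 in the untreated knockout, Mindy1 at 155 and 221 against 36 and 42.7, H2-M3 at 72.5 and 89.8 against 14.1 and 10.9 and Pf4 at 2.94 and 3.85 against 0.0867 and 0.0996. These 4 were called untreated as well (adjusted p = 0.0109, 0.0235, 0.0109 and 0.0397). Odc1 (log2 -1.21 at adjusted p = 0.308), Cuedc1 (-1.04 at adjusted p = 0.215), Hhex (-0.60 at adjusted p = 0.672) and Dner (-3.31 at adjusted p = 0.0971) did not pass untreated. The LPS-treated Ing4-/- libraries, whose comparison with wild type uses the same wild-type libraries, had 0.19 and 0.111 CPM of Cers4, 0.143 and 0.277 of Pf4, 4.28 and 4.87 of Dner, 1802 and 1964 of Odc1, 54 and 55.8 of Mindy1, 23.4 and 28.6 of H2-M3, 18.2 and 21.3 of Hhex and 18 and 20.1 of Cuedc1. For all 8 genes the Ing4-/- libraries thus lay below both wild-type LPS libraries. The share of all tested genes that did so is not given here, so this only describes these 8 genes.

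**Figure D2:**
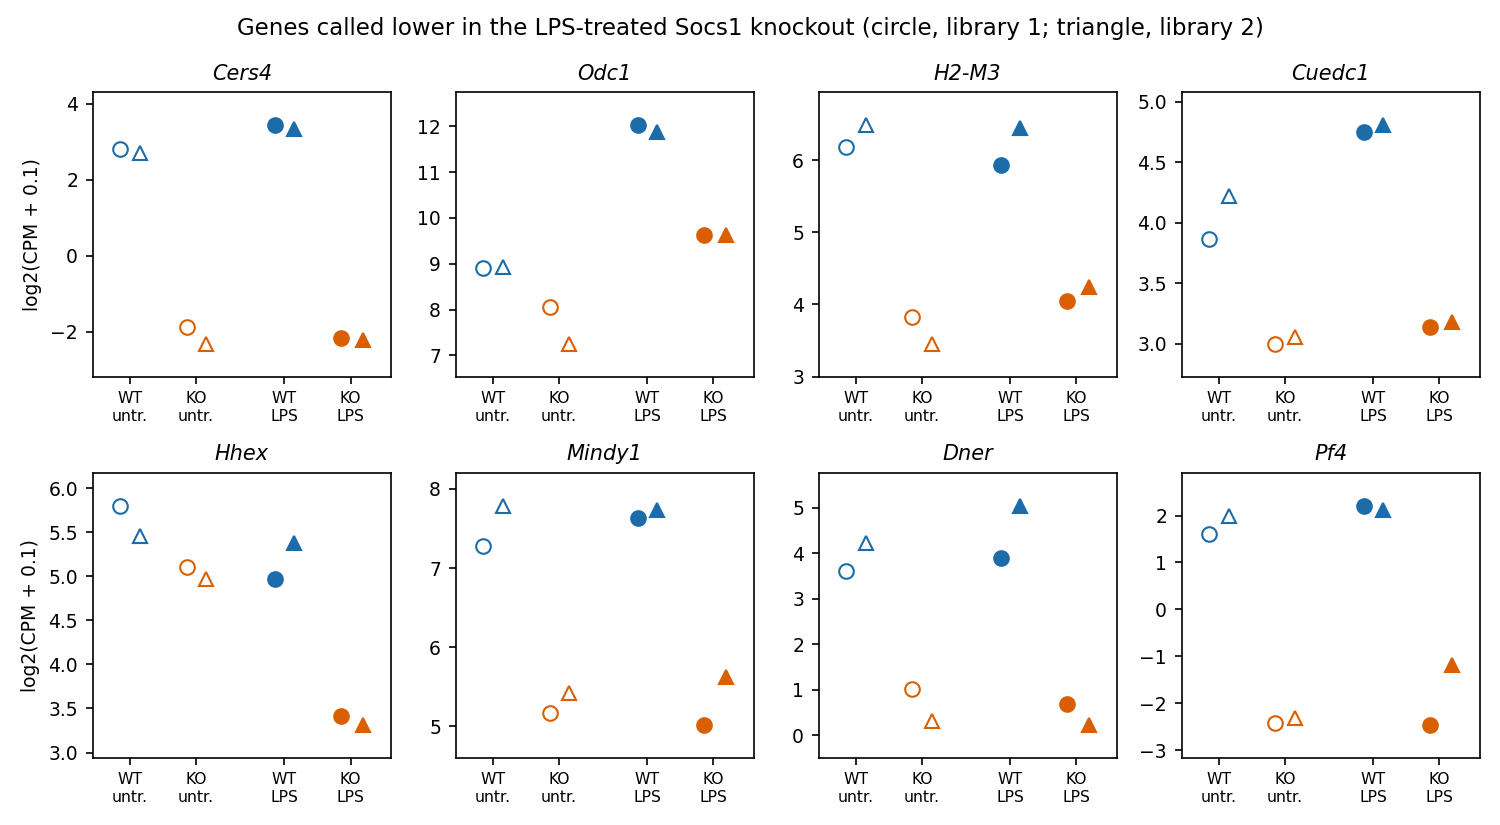
Level of the 8 called genes, as log2(CPM + 0.1), in each untreated (open) and LPS-treated (filled) library of wild type (WT, blue) and the Socs1 knockout (KO, orange); circles are library 1 and triangles library 2 of a group. In each panel both LPS-treated knockout libraries lie below both LPS-treated wild-type libraries, for Odc1 at 786 and 788 CPM against 4188 and 3754.

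To see which differences held in each library, genes were also counted in which both knockout libraries lay beyond both wild-type libraries and each was at least 2-fold from the wild-type mean, on the log2 CPM scale (prior count 2). This count is a description without a test, and its rule was set after the values were seen. It took in 113 genes higher (0.885% of those tested) and 329 lower (2.58%). Taken singly, library 1 was at least 2-fold above the wild-type mean for 7.4% of tested genes and below it for 11.1%, and library 2 for 2.94% and 6.49%. Just inside the rule Gm4610 had a difference of -1.004 in library 1 (-2.16 in library 2), and just outside it Ggh had -0.99 in library 2 (-1.18 in library 1). For a test in each library the edgeR fits gave no overlap, since library 2 alone had 0 calls, with 1442 genes (10.9%) at an unadjusted p under 0.05. In DESeq2, 1812 genes were called in library 1 alone (14.3%), 792 higher (6.24%) and 1020 lower (8.03%), and 163 in library 2 alone (1.34%), 37 higher (0.304%) and 126 lower (1.03%). Of these, 78 were called in each in the same direction (0.64%), 10 higher (0.0821%) and 68 lower (0.558%), and 69 of the 78 also met the 2-fold rule. DESeq2 values in the following paragraphs are for each library alone, and their genes were named after the values were seen.

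Several genes of receptors and other surface proteins were lower in both libraries. Scarf1, a scavenger receptor, had 8.97 and 15.9 CPM in wild type and 0.0815 and 0.0562 in the knockout, or 2 and 1 counts. The ratio of wild type to knockout was 154 (42.4 to 1275) in library 1 and 223 (39.9 to 8834) in library 2, and the DESeq2 adjusted p was 3.86e-06 and 0.00149. Axl, a receptor kinase that takes part in the clearance of dying cells, had 56.1 and 65.2 CPM against 0.652 and 9.67 (DESeq2 log2 -6.55 at adjusted p = 3.91e-27 and -2.64 at adjusted p = 4.98e-06). Library 2 was 9.67 CPM, low against wild type but far above library 1. Cd93, a C-type lectin-like receptor, had 29.9 and 19.8 CPM against 0.285 and 1.41 (DESeq2 log2 -6.45 at adjusted p = 1.67e-08 and -4.13 at adjusted p = 0.00145). Cd200r2, of the CD200 receptor family, had 11.3 and 17.1 CPM against 0.163 and 0.731 (DESeq2 log2 -6.45 at adjusted p = 6.52e-10 and -4.27 at adjusted p = 2.71e-06), and Gypc, a membrane skeleton protein, had 35.3 and 76 against 1.47 and 4.33 (-5.25 at adjusted p = 1.87e-15 and -3.68 at adjusted p = 3.27e-07). The LPS receptor gene Tlr4 was lower too, with 36.4 and 51.6 CPM in wild type and 17 and 12.7 in the knockout (DESeq2 log2 -1.38 at adjusted p = 0.0223 and -1.79 at adjusted p = 0.0138). Its untreated levels were 74.8 and 88.8 CPM in wild type and 47.1 and 73 in the knockout. Notch1, a receptor of cell fate signalling, had 15.4 and 14.8 CPM against 0.652 and 4.39 (DESeq2 log2 -4.54 at adjusted p = 7.26e-12 and -1.77 at adjusted p = 0.0384). Of 32 tested scavenger, lectin and phagocytic receptors, 4 met the 2-fold rule as lower (Axl, Cd36, Clec10a and Itgax) and 0 as higher. Over all tested genes 2.58% met it as lower and 0.885% as higher. Cd36, a receptor for oxidised lipids, had 689 and 541 CPM after LPS in wild type and 238 and 143 in the knockout, and did not pass in edgeR in library 1 alone or library 2 alone (adjusted p = 0.526 and 0.557).

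Several genes of the extracellular matrix and its proteases were low in both libraries. Of 23 tested members, 8 met the 2-fold rule as lower and 0 as higher, against 2.58% and 0.885% of all tested genes. The median difference was -0.98 in library 1 and -1.26 in library 2, against -0.02 and 0.00 over all tested genes. Mmp12, the macrophage elastase, had 10.6 and 17.1 CPM in wild type and 0.0815 and 2.14 in the knockout. Its 2 counts in library 1 give a ratio of 172 (47.3 to 1420.4) (DESeq2 adjusted p = 1.13e-08 in library 1 and 0.00197 in library 2). Adamts1, a secreted protease, had 13.7 and 20.7 CPM against 0.0815 and 2.53 (DESeq2 adjusted p = 6.81e-08 and 0.0347). Ctsl, a lysosomal protease, had 871 and 951 CPM against 389 and 244 (DESeq2 log2 -1.24 at adjusted p = 0.00774 and -1.90 at adjusted p = 8.50e-05). Col18a1, a basement membrane collagen, had 19.3 and 17.5 CPM against 3.42 and 2.53 (DESeq2 log2 -2.43 at adjusted p = 2.94e-05 and -2.86 at adjusted p = 2.34e-05). For Ctsl and Col18a1 library 2 was the lower one. Mmp9, a gelatinase, had 36.1 and 149 CPM against 0.856 and 12.5, and Mmp14, a membrane-bound protease, 9.46 and 19.2 against 1.14 and 2.81. Both passed in DESeq2 in library 1 (adjusted p = 0.000223 and 0.000101) and not in library 2 (0.487 and 0.103). Serpinb2, an inhibitor of plasminogen activators, had 24.1 and 23 CPM after LPS in wild type, 0.774 and 3.54 in the knockout and 0 counts in all 4 untreated libraries.

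Ccl2, which draws monocytes, had 528 and 722 CPM in wild type and 14.8 and 61 in the knockout, while both Ing4-/- LPS libraries had 44.2 and 91.1 CPM. Ccl7, another monocyte chemokine, had 28 and 43 CPM against 0.937 and 7.98. The gap in library 1 alone was called for both (edgeR log2 -5.41 at adjusted p = 0.0387 and -5.24 at adjusted p = 0.00962), and library 2 alone did not pass (-3.35 at adjusted p = 0.372 and -2.15 at adjusted p = 0.353). Of 20 tested chemokines, 5 met the 2-fold rule as lower (Ccl2, Ccl6, Ccl7, Ccl12 and Pf4) and 0 as higher, against 2.58% and 0.885% of all tested genes. Ccl2, Ccl7 and Ccl12 are close relatives on chromosome 11, and reads shared between them may have been split or dropped. Hbegf, an epidermal growth factor ligand, had 29.6 and 19.8 CPM against 5.38 and 0.169 (DESeq2 adjusted p = 0.0135 and 6.76e-08), with library 2 the lower. Its 3 counts in library 2 give a ratio of 146 (49.7 to 707). Ier3, a stress-protective immediate early gene, had 570.2 and 749 CPM against 207 and 176 (DESeq2 log2 -1.68 at adjusted p = 4.31e-05 and -1.90 at adjusted p = 2.82e-05). Of the 25 tested immediate early genes, Ier3 included, 18 lay above both wild-type libraries in library 1 and 5 below, while in library 2 it was 3 above and 15 below. Over all 12771 tested genes it was 4949 above and 5300 below in library 1, and 4724 and 4786 in library 2. Smox, spermine oxidase of the same polyamine pathway as Odc1, had 91 and 118 CPM against 47.7 and 45 (DESeq2 log2 -1.14 at adjusted p = 0.000569 and -1.21 at adjusted p = 0.00294). Slc2a1, the glucose transporter GLUT1, had 556 and 628 CPM against 320.1 and 304 (DESeq2 log2 -0.89 at adjusted p = 0.00499 and -0.95 at adjusted p = 0.0204), and the lipid droplet protein gene Hilpda had 86.1 and 93.2 against 28.2 and 35 (-1.68 at adjusted p = 0.000465 and -1.35 at adjusted p = 0.0488). The metallothionein Mt2 had 314 and 614 CPM against 102 and 117 (DESeq2 log2 -2.20 at adjusted p = 0.00214 and -1.99 at adjusted p = 0.0426).

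Fewer genes were higher in both libraries. Rel, the NF-kB subunit c-Rel, had 234 and 208 CPM in wild type and 403 and 457 in the knockout, and passed in DESeq2 in each (log2 0.86 at adjusted p = 0.00518 and 1.05 at adjusted p = 0.00386), though its log2 difference in library 1 was under the 2-fold rule. Untreated, Rel had 59.1 and 48.1 CPM in wild type and 59.3 and 73.8 in the knockout, so that the groups were closer there than after LPS. Nfkbiz, an inducible NF-kB cofactor, had 586 and 477 CPM against 1016 and 1000.4, without overlap but not past the test in either library (DESeq2 adjusted p = 0.108 and 0.321). Prdm1, the repressor BLIMP-1, had 1.02 and 0.558 CPM against 3.63 and 16.3, and was past the threshold in library 2 only (DESeq2 adjusted p = 0.125 and 2.15e-05), the difference between the libraries being untested. Bcl6, a repressor of inflammatory genes, had 31.3 and 27.9 CPM against 60.5 and 66.3 and passed in neither (DESeq2 adjusted p = 0.0959 and 0.178). Cpq, a secreted carboxypeptidase, had 0.269 and 0.456 CPM against 9.09 and 4.67 (DESeq2 log2 4.64 at adjusted p = 2.07e-06 and 3.69 at adjusted p = 0.00436). The homeobox gene Hoxc4, with 0.215 and 0.0507 CPM against 1.51 and 2.31, passed in each library as well (DESeq2 adjusted p = 0.0034 and 0.00365). Ocstamp, a fusion protein of osteoclasts, had 4.35 and 2.74 CPM against 14.4 and 15, and Pdcd1, the inhibitory receptor PD-1, had 3.98 and 2.43 against 13.9 and 19.8. For both genes the knockout libraries lay above both of wild type. The DESeq2 adjusted p was 0.0193 in library 1 and 0.082 in library 2 for Ocstamp, and 0.244 and 0.302 for Pdcd1. Ocstamp was the only one of 13 tested osteoclast markers to meet the 2-fold rule as higher. The 5 that met it as lower were Dcstamp, another fusion protein, Ctsk, Mmp9, Itgb3 and Src, and Dcstamp had 86.5 and 94.7 CPM in wild type against 36.1 and 26.3. Over all tested genes 0.885% met the rule as higher and 2.58% as lower. The medians of the osteoclast list were 0.41 in library 1 and -0.86 in library 2.

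Many of these genes differed in the same way without LPS. Of the 329 lower genes, 176 (53.5%) also met the 2-fold rule as lower in the untreated knockout, where 283 of all tested genes did (2.22%). These 176 are 62.2% of the 283. Of the 113 higher genes, 37 (32.7%) were also higher untreated, where 99 of all tested genes were (0.775%). These are 37.4% of the 99. An opposite 2-fold difference untreated was found for 1 of the lower and 0 of the higher genes. Of the 78 genes called in each library by DESeq2, 65 of the 68 lower and 9 of the 10 higher also lay without overlap on the same side untreated, where 20.4% and 19% of all tested genes did. At least 2-fold apart untreated were 43 of the 68 and 6 of the 10. Axl, for example, had 36.3 and 47.8 CPM in untreated wild type and 0.867 and 0.249 in the untreated knockout, and Cpq 0.351 and 0.498 against 8.41 and 4.58.

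**Figure D3:**
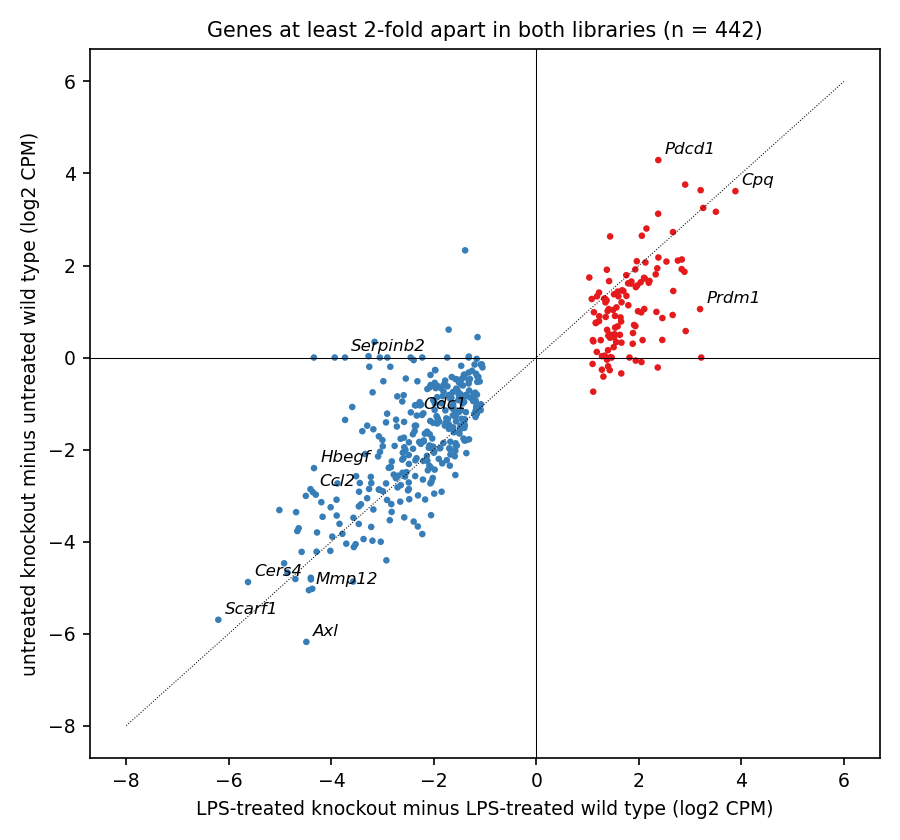
Difference between Socs1 knockout and wild type, as the mean over the knockout libraries in log2 CPM, after LPS (horizontal) and without LPS (vertical) for the 442 genes that met the 2-fold rule after LPS; blue points were lower and red points higher, and the dotted line marks equal differences. Most lower genes lie below 0 on the vertical axis too; genes such as Serpinb2, with 0 counts in all untreated libraries, lie at 0.

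Whether the knockout difference after LPS differed from the one without LPS was tested directly. edgeR called 0 of 12771 genes for this difference of effects, and 102 (0.799%) had an unadjusted p under 0.05. That is fewer than this threshold gives when no gene differs, so the test was conservative. Its 0 calls do not show that the effects were alike. DESeq2 and limma-voom also called 0, with 92 and 85 genes at an unadjusted p under 0.05. Without library 2, that is for library 1, 61 genes were called, 15 higher and 46 lower, and without library 1 there were 0, with 250 at an unadjusted p under 0.05.

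Library 1 stood near its untreated level for most interferon-stimulated genes. All 73 tested type I interferon-stimulated genes lay below both wild-type LPS libraries in library 1, and 67 of them were called lower in library 1 alone, where edgeR called 623 of 13293 genes lower (4.69%) and 573 higher (4.31%). Of all 12771 tested genes, 5300 lay below and 4949 above both wild-type libraries in library 1. The median difference of the interferon-stimulated genes was -3.80 in library 1 and 0.32 in library 2 (-3.93 and 0.20 with every value under 3 counts set to 3 counts). In library 2, 3 of the 73 lay below both wild-type libraries, 24 above both, and 0 were called, where 4786 and 4724 of the 12771 tested genes lay below and above both. Ifit1, an antiviral RNA-binding protein whose promoter is shown above, had 669 and 1883 CPM in wild type, 13.6 in library 1 and 1686 in library 2. Library 1 alone gave a log2 of -6.56 ± 1.19 SE, adjusted p = 0.016 and library 2 alone 0.40 ± 0.813 SE, adjusted p = 0.888. Mx2, of the antiviral Mx GTPase family, is annotated as a polymorphic pseudogene. It had 123 and 225 CPM in wild type, 0.611 in library 1 and 209 in library 2 (log2 -8.14 in library 1 alone). Usp18, which removes the ubiquitin-like ISG15 from proteins and dampens interferon receptors, had 344 and 842 CPM against 3.55 and 598. In both Mx2 and Usp18 the level of library 1 was close to that of the first untreated knockout library (0.564 and 3.64 CPM). Isg15 had 230.0 and 741 CPM in wild type and 31.4 and 498 in the knockout libraries, and Irf7, the main amplifier of interferon genes, 174 and 383 against 6.97 and 316. Irf1, a transcription factor of the interferon response, had 143 and 302 CPM against 16.8 and 115 (library 1 alone -3.73 ± 0.463 SE, adjusted p = 0.0044). Irf1 was below both wild-type libraries in library 2 as well, without passing (-0.95 at adjusted p = 0.437).

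The GBP and IRG GTPases, which attack membranes around intracellular microbes, showed the same split. Of 15 tested, 14 lay below both wild-type libraries in library 1 and 1 in library 2, where 5300 and 4786 of the 12771 tested genes did. The medians were -4.90 in library 1 and 0.19 in library 2. With values under 3 counts set to 3 counts they were -5.27 and -0.19, so that the sign in library 2 rests on low values. Gbp2 had 29.1 and 139.6 CPM in wild type, 0.408 in library 1 and 70.8 in library 2, and Irgm1 had 482 and 813 against 21.5 and 1039. Ifnb1, the interferon that starts this response, was present in library 1 at a lower level: 17.7 and 27.2 CPM in wild type, 5.91 in library 1 and 22.7 in library 2, with 0 to 1 counts in each untreated library of both genotypes. Its difference in library 1 alone did not pass (log2 -1.93 at adjusted p = 0.0767). Of the 8 widest falls of library 1 alone, chosen by rule, 6 had 0 counts there. Ccl17, a T cell chemokine, was at least 61.1-fold lower than the wild-type mean, the death ligand gene Tnfsf10 at least 39-fold, Slfn1 at least 35.9-fold, Apol9b at least 31.4-fold, the arginine transporter gene Slc7a2 at least 23.9-fold and the formyl peptide receptor gene Fpr2 at least 23.5-fold, each against a floor of 3 counts in the library. In library 2 these genes stood at 8.15, 4.5, 4.44, 4.39, 2.7 and 3.71 CPM, so that they were measured there. Wild type had 7.85 and 7.1 CPM of Ccl17, 1.83 and 7.71 of Tnfsf10, 1.18 and 7.61 of Slfn1, 1.24 and 6.44 of Apol9b, 3.65 and 2.18 of Slc7a2 and 1.88 and 3.85 of Fpr2.

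**Figure D4:**
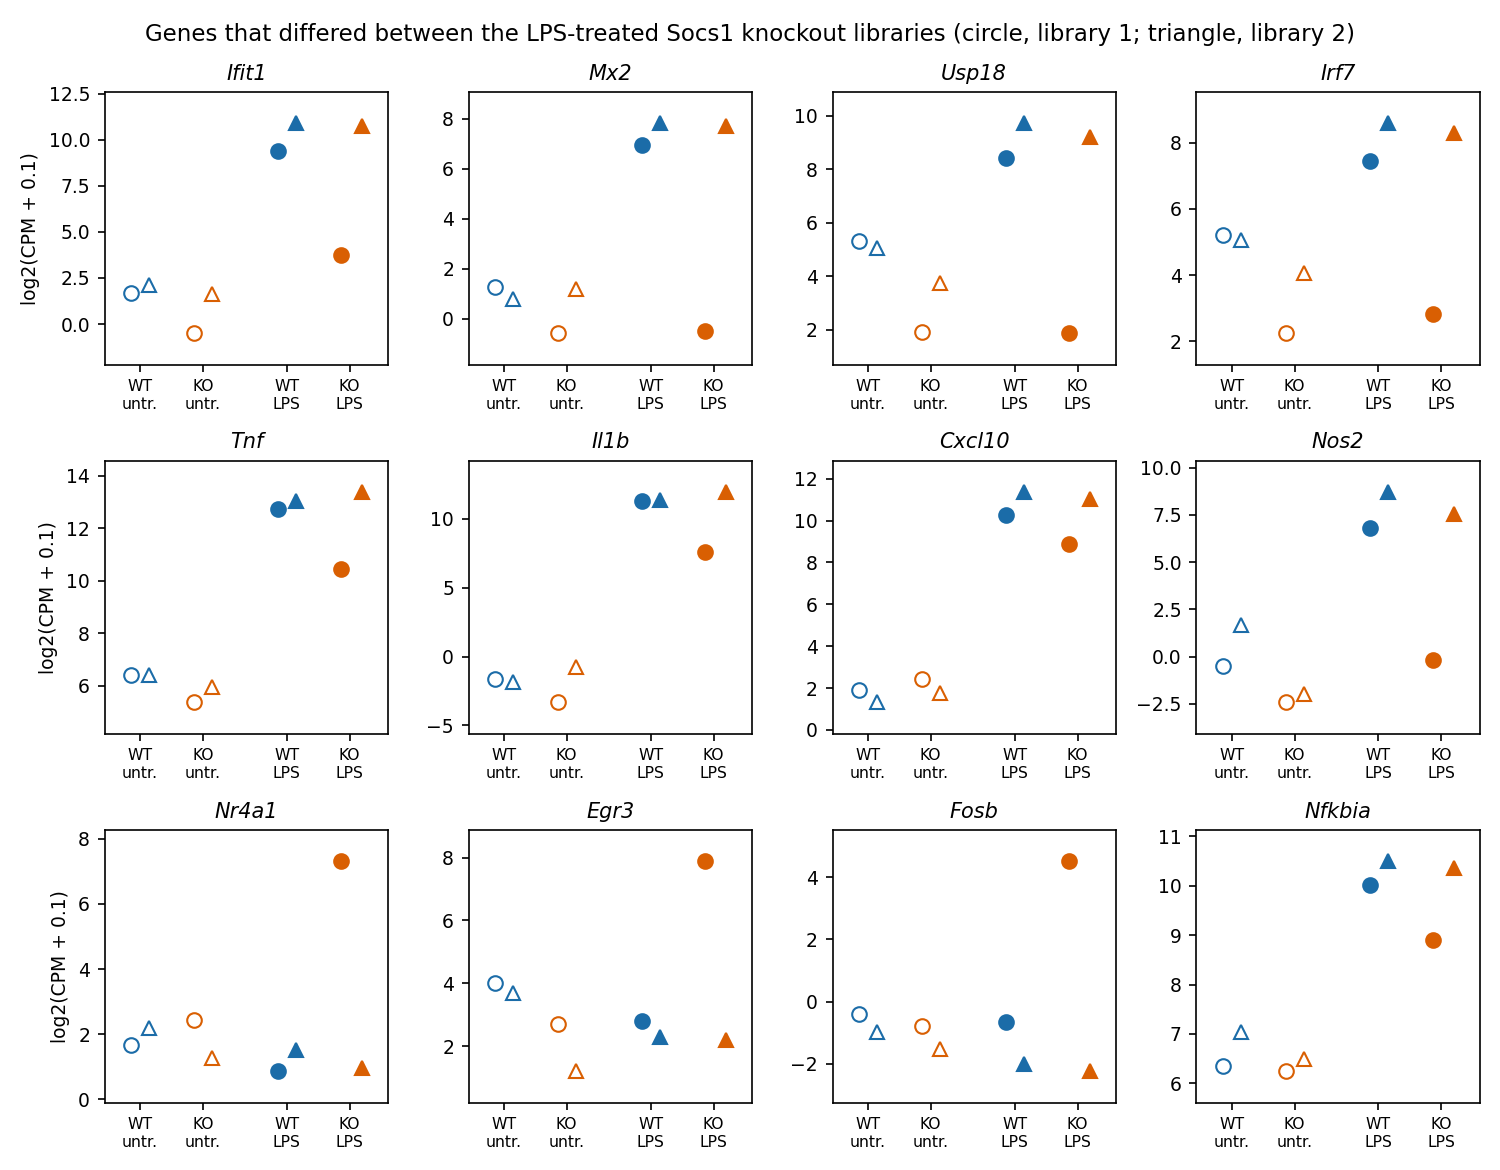
Level, as log2(CPM + 0.1), of 12 genes that differed between the LPS-treated knockout libraries. Each untreated (open) and LPS-treated (filled) library of wild type (WT, blue) and the Socs1 knockout (KO, orange) is shown. Circles are library 1 and triangles library 2 of a group. Filled orange circles lie near the untreated level for Mx2 and Usp18, between the untreated and wild-type LPS levels for Tnf and Il1b, and above all other libraries for Nr4a1, Egr3 and Fosb.

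By the median of their list, inflammatory cytokines stood above their untreated levels in library 1, but mostly below wild type. Tnf had 6818 and 8473 CPM in wild type, 1381 in library 1 and 10530.3 in library 2, while the untreated knockout had 41.2 and 61.7. Library 1 alone gave a log2 difference of -2.47 ± 0.518 SE, adjusted p = 0.0202 from wild type and library 2 alone 0.46 ± 0.454 SE, adjusted p = 0.747. Il1b had 2554 and 2630.2 CPM against 196 and 3865 (library 1 alone -3.73 ± 0.59 SE, adjusted p = 0.00817), and was at 0 and 0.498 CPM in the untreated knockout. Il6 was at 15.5 and 16 CPM in wild type, 0.163 in library 1 and 73.2 in library 2, the highest of the 4, with 0 counts in every untreated library of these genotypes. Neither library passed for Il6 (adjusted p = 0.0716 and 0.469). Cxcl10 had 1225 and 2598 CPM against 478 and 2105 (library 1 alone -2.00 at adjusted p = 0.0989), far above its untreated 5.29 and 3.34 CPM in both. Il10, the anti-inflammatory cytokine, was scarce, with 1.4 and 0.203 CPM against 1.59 and 1.46, and did not pass in either library (adjusted p = 0.726 and 0.853). Nos2, the inducible nitric oxide synthase, was at 110.2 and 413 CPM in wild type, 0.774 in library 1 and 185 in library 2 (library 1 alone -8.39 ± 1.33 SE, adjusted p = 0.0108).

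Counted over lists, 22 of 26 inflammatory cytokines and 18 of 20 chemokines lay below both wild-type libraries in library 1, and 2 of each above. Of all 12771 tested genes, 5300 lay below and 4949 above. Their medians were -2.34 and -2.87 in library 1, and 0.12 and 0.05 in library 2 (-0.01 and -0.11 with values under 3 counts set to 3 counts, which turns the sign). Against the untreated library of the same number, the median LPS difference of the cytokines was 2.81 in library 1, against 4.56 in library 2 and 3.87 and 4.64 in wild type. For the interferon-stimulated genes the median was 0.09 in library 1, against 3.57 in library 2 and 2.42 and 3.46 in wild type. Of these 73 genes, 61 lay within 2-fold of the untreated library in library 1 and 2 in library 2. Of the 26 cytokines it was 7 and 2, and of all 12771 tested genes 11742 and 10096. For NF-kB subunits and inhibitors the medians were 1.94 in library 1, 2.26 in library 2 and 2.03 and 2.17 in wild type. Nfkbia, which encodes the NF-kB inhibitor IκBα, had 1035 and 1440.0 CPM in wild type LPS, 476 in library 1, 1307 in library 2 and 75.6 and 90.2 in the untreated knockout. Icam1, an adhesion molecule, had 505 and 678 CPM against 648 and 632, so that the knockout libraries lay within the wild-type range. Whether library 1 differed in exposure, time or handling was not tested, as no label speaks of it.

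Immediate early genes, which respond to stimuli within minutes, were mostly above wild type in library 1. Of 25 tested, 18 lay above both wild-type libraries in library 1, and the median was 1.03. In library 2 the median was -0.35 and 3 lay above both wild-type libraries. Of all 12771 tested genes, 4949 lay above both in library 1 and 4724 in library 2. Nr4a1, an orphan nuclear receptor, had 1.72 and 2.74 CPM in wild type, 158 in library 1 and 1.86 in library 2 (library 1 alone 6.14 ± 0.751 SE, adjusted p = 0.00528). Egr3, a zinc finger factor, had 6.88 and 4.77 CPM against 235 and 4.44 (library 1 alone 5.33 ± 0.88 SE, adjusted p = 0.0122), and Fosb, an AP-1 subunit, 0.537 and 0.152 against 22.5 and 0.112 (6.02 ± 0.864 SE, adjusted p = 0.00642). For these genes library 1 also lay above both untreated knockout libraries, which held 5.33 and 2.34, 6.33 and 2.19 and 0.477 and 0.249 CPM. Jun had 24.1 and 18.7 CPM in wild type against 206 and 19.4, and Btg2, an antiproliferative gene, 35.4 and 31.1 against 346 and 47.6. Arc, known from neurons, had 3.49 and 4.82 CPM against 87.3 and 4.16, and the factor gene Klf4 1.07 and 2.99 against 37.2 and 0.731 (library 1 alone 4.39 at adjusted p = 0.000863 and 4.18 at adjusted p = 0.00683). Fos itself was not high, with 31.3 and 90.3 CPM against 53.4 and 32.6, and Egr1, at 62.2 and 92 against 452 and 61.2, did not pass (2.55 at adjusted p = 0.204). Of the other genes that the rule named as higher in library 1 alone, Slc16a12, a transporter gene, had 2.85 and 2.59 CPM against 54.8 and 1.63, but its untreated knockout libraries held 62.9 and 19. Npnt, a matrix protein gene, had 1.13 and 1.01 CPM against 18.3 and 1.07, and Xkr5 0.107 and 0 against 2.77 and 0.0562, with 3.12 and 0.348 in the untreated knockout.

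Many proliferation genes were higher in library 1 as well. Of 50 tested cell cycle and replication genes, 44 lay above both wild-type LPS libraries in library 1 and 3 below, while in library 2 it was 17 above and 22 below. Of all 12771 tested genes, 4949 lay above and 5300 below in library 1, and 4724 above and 4786 below in library 2. The medians of the 50 genes were 0.82 and -0.07, against -0.02 and 0.00 over all tested genes. Mki67, a marker of cycling cells, had 443 and 322 CPM in wild type, 1228 in library 1 and 523 in library 2 (library 1 alone 1.68 ± 0.229 SE, adjusted p = 0.00528), and 931 and 894 in the untreated knockout. Against the untreated library of the same number these genes had a median LPS difference of -0.05 in library 1, and of -0.69 in library 2 and -0.64 and -0.62 in wild type. Of 32 tested genes of cholesterol and fatty acid synthesis, 23 lay above both wild-type libraries in library 1 and 1 below. In library 2 it was 15 above and 3 below, and the medians were 0.48 and 0.24. Hmgcs1, of the mevalonate pathway, had 112 and 71.5 CPM against 468 and 170.3 (library 1 alone 2.35 at adjusted p = 0.00642), and Insig1, which restrains the pathway, 89.1 and 54.1 against 316 and 112 (2.14 at adjusted p = 0.0143). Both knockout libraries lay above both of wild type for these genes.

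Some genes were high in library 2 and in the untreated knockout library of the same number, and those named here were picked with their values in view. The MHC class II gene H2-Aa had 0.537 and 0.507 CPM in wild type, 0.0815 in library 1 and 15.3 in library 2, and 0.0434 and 10.7 in the untreated knockout libraries. H2-Eb1 (0.0537 and 0.254 CPM against 0.0408 and 8.49) and H2-Ab1 (0.86 and 1.32 against 0.122 and 8.66) had the same pattern, with 0 and 7.52 and 0.0867 and 6.47 CPM untreated. The MHC class II list as a whole did not follow them: its 15 tested genes had medians of -0.10 and 0.06. In library 2, 7 lay above and 3 below both wild-type libraries, where 4724 and 4786 of all 12771 tested genes did. Its 16 genes summed to 1757 and 2872 CPM in wild type, 2166 in library 1 and 1955 in library 2. The nucleotide receptor gene P2ry13 had 0.0537 and 0 CPM in wild type and 0 and 8.43 in the knockout, with 0.0434 and 8.26 untreated. In each of these genes the library numbered 2 was high with and without LPS and the one numbered 1 was not. Of the 4, P2ry13 passed in DESeq2 in library 2 alone (adjusted p = 0.0232; 0.0916, 0.0938 and 0.488 for the others), and edgeR called none. Plau, which encodes urokinase, was low in both libraries numbered 2, with 801 and 815 CPM in wild type, 1009.9 in library 1 and 51.1 in library 2, and 651 and 83.8 untreated. Conversely Nfatc1, the main factor of osteoclast formation, was high in both libraries numbered 1, with 77.7 and 64.2 CPM in wild type, 507 in library 1, 60.5 in library 2 and 483 and 102 untreated. Over all tested genes, the difference of library 1 from library 2 correlated with that of the untreated knockout libraries at 0.565, a description over genes, which are not replicates. Edn1, the vasoconstrictor endothelin, was high in library 2 without being so in its untreated counterpart, at 215 CPM against 0.774 in library 1, 30.4 and 16.9 in wild type and 0.0434 and 0.0498 in the untreated knockout (DESeq2 log2 3.19 at adjusted p = 0.0383 in library 2 alone).

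Most MHC class I genes lay below wild type in both libraries. Of 24 tested genes of MHC class I and peptide loading, 22 lay below both wild-type libraries in library 1 and 16 in library 2, where 5300 and 4786 of the 12771 tested genes did. The medians were -0.90 and -0.50, and H2-M3 was the only member called with both libraries. H2-K1, a classical class I molecule, had 679 and 899 CPM against 541 and 458, and B2m, the shared light chain, 1068 and 1454 against 714 and 938. Neither passed in library 1 alone (edgeR adjusted p = 0.402 and 0.0897) or library 2 alone (0.476 and 0.581). Class I heavy chain genes are close copies of each other, and the sources used here do not give how shared reads were counted. Oxidative phosphorylation genes (38 tested) had medians of -0.05 and -0.16, and 27 lay below both wild-type libraries in library 2. The p53 targets (29 tested) had medians of -0.02 and -0.10, and NRF2 targets (29 tested) -0.16 and -0.18. The SOCS family and JAK-STAT inhibitors had medians of -0.02 and 0.17, and negative regulators of TLR signalling (32 tested) -0.07 and 0.16. The E3 ligase partners of SOCS proteins (15 tested) had medians of -0.29 and -0.06, and the TLRs, adaptors and kinases (35 tested) had -0.43 and 0.13. Over all tested genes the medians were -0.02 and 0.00.

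**Figure D5:**
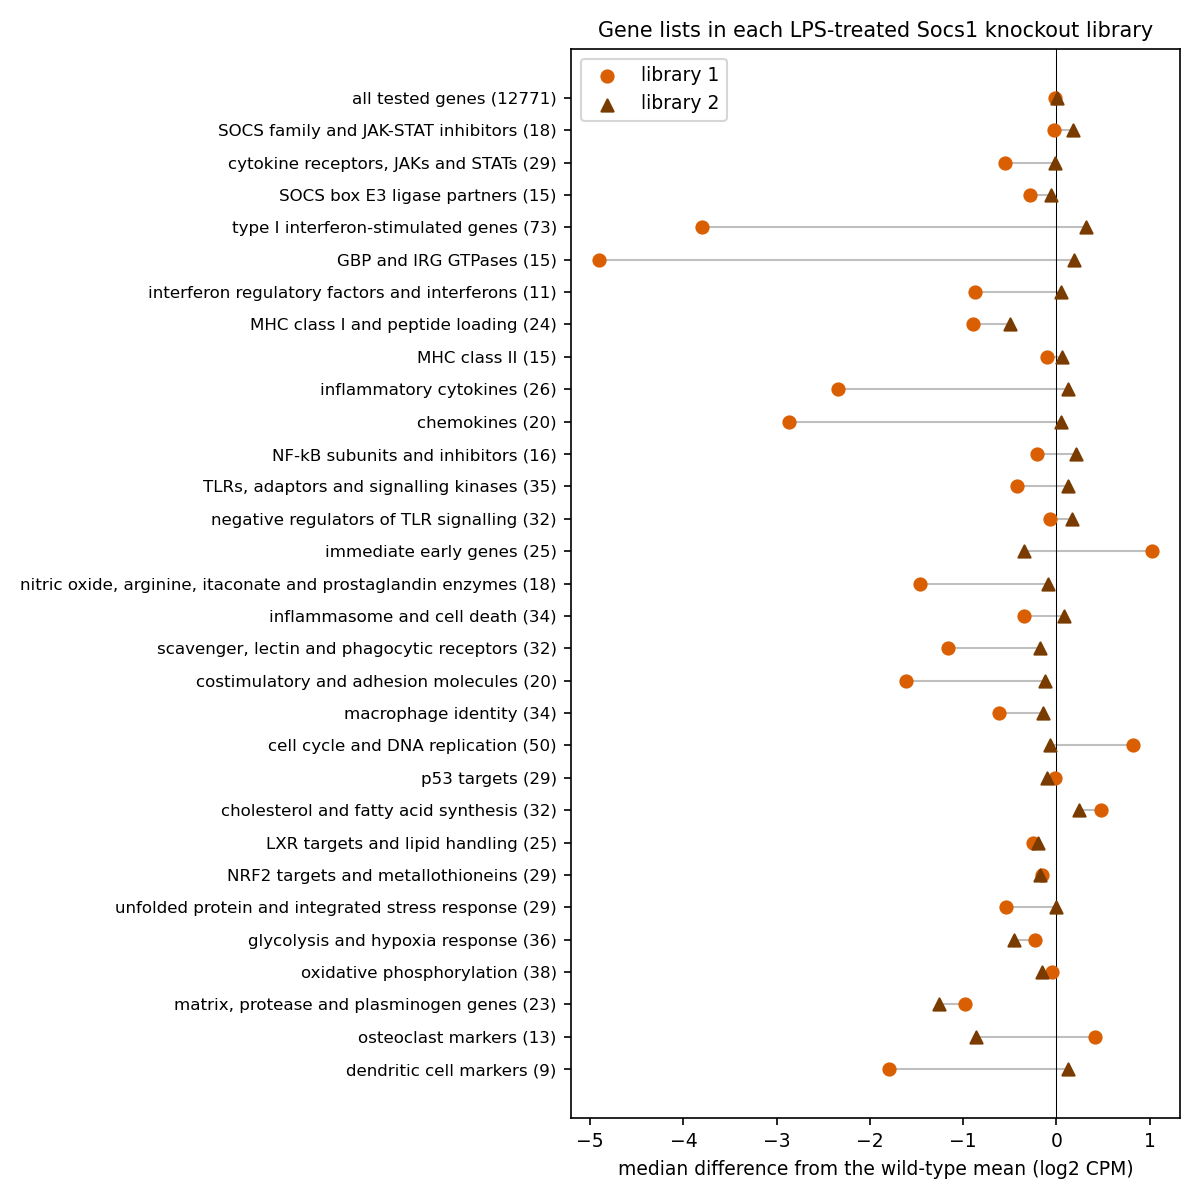
Median difference from the wild-type LPS mean in log2 CPM for each gene list with at least 5 tested members (number tested in brackets), in library 1 (circles) and library 2 (triangles). The libraries lie far apart for interferon-stimulated genes (-3.80 and 0.32), chemokines (-2.87 and 0.05) and immediate early genes (1.03 and -0.35), and close together below 0 for matrix genes (-0.98 and -1.26) and MHC class I genes (-0.90 and -0.50).

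The authors' deposited table for this comparison lists 183 genes, 57 higher and 126 lower in the knockout, all with a log2 fold of at least 1.01 in size. Of these, 118 of the lower genes (93.7%) and 30 of the higher genes (52.6%) met the 2-fold rule in both libraries. They make up 35.9% of the 329 lower and 26.5% of the 113 higher genes. All 8 genes called by edgeR are in the authors' deposited table.

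The cells carried macrophage markers in both genotypes. The summed level of 35 macrophage identity genes was 25090 and 28140 CPM in wild-type LPS libraries, 23900 in library 1 and 27210 in library 2, and 33 of them were detected in all 4. Markers of other lineages were scarce: the sums over 16 neutrophil and early myeloid genes were between 4.89 and 11.8 CPM, with 8 of the genes at 0 in all 4 libraries, and those over 16 fibroblast, epithelial and erythroid genes between 0.448 and 0.71 CPM, with 11 at 0. The 17 T, B and NK cell genes summed to 72.2 and 12.9 CPM in wild type and 58.9 and 22.04 in the knockout, with 11 at 0. Dendritic cell markers summed to 795 and 1008 CPM in wild type and 1243 and 1180 in the knockout. The 9 of them that were tested had a median difference of -1.80 in library 1 and 0.13 in library 2. Their sum therefore does not stand for each member. Osteoclast markers summed to 1297 and 1572 CPM in wild type against 1208 and 739.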

How the data were processed

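RNA was measured by poly(A)-selected, stranded sequencing with single reads of 75 bases, per the labels' protocols. The authors deposited raw read counts per gene for 12 libraries (6 groups of 2) and a table of log2 fold changes and adjusted p-values for their own comparisons. The submitters' processing notes name FastQC, HISAT, StringTie, HTSeq and DESeq2 without their roles. They also name a human genome build, GRCh38, whereas the gene identifiers are mouse, and 250 of 257 positions checked were those of GENCODE M21 (GRCm38). The labels' treatment protocol names another cell line than the samples' own labels, which were followed.

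Counts were tested with edgeR 4.0.16 (R 4.3.3): default filter on low counts, TMM scaling, robust quasi-likelihood fit with 1 mean for each of the 6 groups, Benjamini-Hochberg adjustment over all tested genes, and a threshold of 0.05. This left 12771 of 54232 genes, with a biological coefficient of variation of 0.289. All adjusted p-values without another tool's name are from edgeR. SE was taken from the fitted log2 difference and its F statistic. CPM are from TMM-scaled library sizes. Each knockout library was also tested alone. DESeq2 1.42.0 and limma-voom (limma 3.58.1) were alternatives, with other scalings, filters, thresholds, group sets and left-out libraries. On simulated counts for the comparison of 2 against 2 libraries (12520 genes), 88% of 4-fold and 100% of 16-fold changes were recovered, with 7 false calls of 195. For a lone knockout library (12623 genes) 58% and 100% were recovered, with 11 false calls of 169. In these simulations every gene had the same spread, and the 2 knockout libraries were shifted alike. The real knockout libraries differed strongly from each other, so these shares are not the power or error rate here. An exact permutation test of 2 against 2 libraries cannot go below 0.333. Intervals are exact at 95%, and floors are 3 counts per library. No count column was unmatched.

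Genes were named by rule: Socs1 and 9 response genes (1 is not reported here), the genes called with both libraries, and the 8 widest changes in each direction in library 1 alone. Other genes were picked with their values in view. The members, the 33 gene lists (865 of 868 symbols in the table) and the tests were chosen with earlier results of these data known.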

Additional observations from a re-analysis of the deposited data

How the results depend on the processing

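The count of 8 genes for the LPS-treated knockout against wild type was 225 with DESeq2, 24 with limma-voom, 919 with no filter, 0 with only the groups of the comparison, 1 in a test against a fold of 1.5 and 1 at an adjusted p of 0.01. Leaving out each library in turn gave 0 to 1196. It stayed at 8 with both other scalings, which shifted the median of all genes by -0.00413 and -0.0267. For the untreated comparison (6) the counts were 90 with DESeq2, 429 with no filter, 3 with a mean of at least 5 CPM in 1 group and 0 at an adjusted p of 0.01, and 0 to 24 with each library left out. For the difference of effects (0) no filter gave 64, and leaving out libraries 0 to 61. Called in each knockout library alone (0) were 78 with DESeq2 and 260 with no filter. Library 1 alone (1196) gave 1812 with DESeq2, 2352 with no filter, 496 against a fold of 1.5, 314 at an adjusted p of 0.01, and 887 and 451 without wild-type LPS library 1 and 2. Library 2 alone (0) gave 163 with DESeq2 and 685 with no filter. With a fold of 3, a rule added after the data were seen, 196 of the 442 genes held in both libraries.

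With both libraries, several named LPS-response genes reversed. Their differences without library 2 were -2.47 for Tnf, -3.73 for Il1b, -2.00 for Cxcl10 and -6.56 for Ifit1. Without library 1 the log2 differences were 0.46 for Tnf, 0.58 for Il1b, 0.14 for Cxcl10 and 0.40 for Ifit1. Without wild-type LPS library 2 they were 0.07 for Cxcl10 and 0.34 for Ifit1. Il6, whose libraries lay on both sides of wild type, was -2.46 with limma-voom and -6.55 without library 2, against 2.22 without library 1. Of the other alternatives for named genes with both libraries, 178 kept direction and call, 42 lost the call and 9 gained it. For genes of a single library, 150 kept both and 38 lost the call.

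With the replicate number as a block, 18 genes were called for the main comparison, 2 in each knockout library alone and 2 in library 2 alone. Differences of library 1 from 2 correlated at 0.156 between the wild-type and knockout LPS groups and at -0.129 to 0.156 across genotypes. These values cannot show whether the numbers pair samples of different genotypes, since differences particular to a genotype can hide a shared one. Between untreated and LPS-treated libraries of 1 genotype they correlated at 0.447 in wild type, 0.601 in Ing4-/- and 0.565 in the Socs1 knockout. With blocks that join each untreated library to its same-numbered LPS-treated one within a genotype (an alternative chosen with the data in view), the difference of effects with and without LPS had 0 calls and 360 genes at an unadjusted p under 0.05, against 102 without it.

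Depth limits genes near 3 counts, and 2 libraries per group limit all tests.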
